A study of Homo sapiens with 8 samples.

Results

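The genes described here make, move and sense cholesterol. They are 28 genes taken by symbol from a table of 18133 rows: 20 enzymes of the mevalonate and sterol pathway, 5 genes that control the SREBP transcription factors and 3 genes of sterol transport. All 28 were present and passed the filter that left 13885 genes for testing. They were taken for their known function, with earlier results of these data in view.

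Messenger RNA was measured in DND41 cells, a line established from a human acute lymphoblastic leukemia of T cells (T-ALL). An inducible hairpin (shRNA) in the cells targeted SIRT1, which encodes a deacetylase that uses NAD, or was a control shRNA. All cultures, controls included, had received doxycycline for 72 h in medium with serum. For knockdown there were 3 libraries with the hairpin labelled sh1 and 3 with the hairpin labelled sh3, lettered A to C, and for control there were 2, lettered A and C. The labels do not explain the numbers 1 and 3 of the hairpins. Library sh3 C is a knockdown library in its title and genotype, whereas the control hairpin stands in its description. Here it counts as sh3, and across genes its Spearman coefficient was 0.9955 to 0.996 with the other sh3 libraries and 0.991 to 0.9925 with the controls. Replicates were plated cultures, and nothing in the labels says that they came from separate infections or clones, so that the spread behind each p-value is that of plated cultures and could be technical. In whole-culture RNA, fewer cells of a kind and less RNA per cell cannot be told apart.

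SIRT1, the targeted gene, was at 1259, 1312 and 1328.5 normalized counts with sh1 and at 1099, 1217 and 1179 with sh3, against 1745 and 1919.5 in the controls. All 6 knockdown libraries were below both controls, and the log2 fold change was -0.49 with sh1 (adjusted p = 0.0029) and -0.65 with sh3 (adjusted p = 0.00014). Without control C the value with sh1 was -0.43 (adjusted p = 0.0504). The sum of normalized counts over genes ran from 33087820 to 34072666. Of 12 T-ALL and cortical thymocyte markers 10 were in the table, all 10 with a mean of at least 10, while 5 of 6 myeloid markers and all 3 erythroid markers in the table had a mean under 10. The thymocyte markers themselves moved with the knockdown: their summed level was 138830 to 143790 with sh1 and 130480 to 133190 with sh3, against 146970 to 147520 in the controls. Of the 10, 8 were called lower and 1 higher over both hairpins, beside 6.19% and 6.55% of all genes tested. Of 6 B cell markers 5 were in the table, CD22 and PAX5 with a mean under 10, and the list summed to 18026 to 19718 with sh1 and 24072 to 25492 with sh3, against 24455 to 26211 in the controls. Of 6 adherent cell markers 3 had a mean under 10 (COL1A1, COL1A2 and EPCAM), and the list summed to 25032 to 26497 with sh1 and 25230.0 to 26667 with sh3, against 26434 to 26838 in the controls. In each of these 2 lists 1 marker was called lower and 0 higher. The part of these lists in the sterol results was not tested.

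Cholesterol is built from acetyl-CoA through mevalonate, the prenyl diphosphates, squalene and lanosterol, and the first stages also feed dolichol, ubiquinone and the prenyl groups of small GTPases. The pathway is governed by membrane-bound factors encoded by SREBF1 and SREBF2. When sterols are scarce in the endoplasmic reticulum, the escort protein SCAP carries these factors to the Golgi, where proteases free them, and when sterols are plentiful the INSIG proteins hold SCAP back. Dividing T cells and T-cell leukemias make cholesterol for new membrane as well as taking it up.

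SREBP factors are known to act on promoters together with NF-Y, which binds CCAAT boxes, and Sp1, which binds GC boxes. Promoters are shown for SREBF2, which held the sterol regulatory element, and for the 4 members called lower over both hairpins in every setting tried (HMGCS1, MSMO1, DHCR7 and SREBF1). Each sequence is the 250 bases before a RefSeq transcript start, written 5′ to 3′ on the gene's strand, from RefSeq on GRCh38.p14. The windows were chr22:41832855-41833104 (+) for SREBF2, chr5:43313413-43313662 (-) for HMGCS1, chr4:165327419-165327668 (+) for MSMO1, chr11:71448394-71448643 (-) for DHCR7 and chr17:17836987-17837236 (-) for SREBF1. HMGCS1 and DHCR7 each have 2 windows, and the one with more CCAAT boxes is printed. Capitals mark CCAAT boxes on either strand, and in SREBF2 also the sterol regulatory element core TCACNCCAC.
SREBF2: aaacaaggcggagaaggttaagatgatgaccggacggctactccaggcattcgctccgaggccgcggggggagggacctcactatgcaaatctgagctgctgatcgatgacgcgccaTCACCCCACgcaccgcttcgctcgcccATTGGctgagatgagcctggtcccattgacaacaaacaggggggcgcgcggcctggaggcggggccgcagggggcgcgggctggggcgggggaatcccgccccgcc
HMGCS1: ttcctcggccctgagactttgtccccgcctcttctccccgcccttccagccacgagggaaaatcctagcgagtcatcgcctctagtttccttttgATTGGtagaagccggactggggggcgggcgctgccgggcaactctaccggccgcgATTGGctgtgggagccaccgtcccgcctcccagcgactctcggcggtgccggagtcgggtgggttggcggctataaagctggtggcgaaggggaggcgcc
MSMO1: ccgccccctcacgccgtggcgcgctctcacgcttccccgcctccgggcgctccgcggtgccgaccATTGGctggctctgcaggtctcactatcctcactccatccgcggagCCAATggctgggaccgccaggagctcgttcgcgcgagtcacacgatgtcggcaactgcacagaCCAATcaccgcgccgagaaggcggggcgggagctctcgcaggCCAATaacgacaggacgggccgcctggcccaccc
DHCR7: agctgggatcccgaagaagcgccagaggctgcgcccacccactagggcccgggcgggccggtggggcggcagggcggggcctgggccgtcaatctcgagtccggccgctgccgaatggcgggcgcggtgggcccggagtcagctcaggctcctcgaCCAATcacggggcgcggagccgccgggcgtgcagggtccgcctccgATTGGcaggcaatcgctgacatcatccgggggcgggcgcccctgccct
SREBF1: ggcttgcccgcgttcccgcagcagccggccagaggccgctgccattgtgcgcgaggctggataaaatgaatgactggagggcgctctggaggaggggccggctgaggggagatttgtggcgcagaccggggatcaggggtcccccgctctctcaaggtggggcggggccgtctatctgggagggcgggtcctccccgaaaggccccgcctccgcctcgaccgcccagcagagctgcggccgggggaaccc

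Windows were at hand for 25 members, 17 of them enzymes, and 34 windows in all since some genes have several starts. ACAT2, FDFT1 and SQLE, all called lower over both hairpins, had no window. CCAAT was found on either strand in 20 of the 34 member windows (58.8%), among them 16 of 24 enzyme windows (66.7%), beside 32.0% of all 35116 windows and 33.0% of the 14644 windows of genes tested here. MSMO1 held 4 CCAAT boxes, HMGCS1 and DHCR7 held 2 each, and SREBF1 held none in its window. The GC box GGGCGG was in 30 of the 34 member windows (88.2%), beside 61.6% of the windows of tested genes. The core TCACNCCAC was in 310 of the 35116 windows (0.883%), and SREBF2 was the single member that held it. The E-box CACGTG was in 4 of the 34 member windows (11.8%), those of INSIG1, SC5D and SCAP. It was in 8.18% of the windows of tested genes and in 6.34% of all windows. All motifs were searched on both strands, and the motifs listed do not contain each other. These are matches of letters in a short window and say nothing of which factor bound, and which start DND41 uses is not given by the table.

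SIRT1 knockdown was compared with control to see how the pathway's transcripts stood when SIRT1 was lowered. A change over both hairpins is that of the mean of sh1 and sh3, and need not be called with each hairpin. Of the 20 enzymes 14 fell in this sense and 0 rose, with fitted changes from -35.9% to -14.5%. With sh1 alone 7 enzymes fell and with sh3 alone 16. Of the 8 regulators and transport genes SREBF1 was the single one called over both hairpins. Over all 28 members 15 fell and 0 rose, beside 6.19% of all genes tested called lower and 6.55% called higher. The median log2 fold change was -0.31 over the enzymes and -0.0022 over all genes tested. All 6 knockdown libraries lay below both controls in 18 of the 28 members, 16 of them enzymes, as did 11.4% of all genes tested, and 0 members had all 6 above. Changes were tested on log2(normalized count + 1) with limma, a linear model that shares information on the spread between genes, with both hairpins weighted equally and p adjusted by Benjamini-Hochberg over the 13885 genes, and a gene is called changed at an adjusted p under 0.05.

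The counts of calls depended on the 2 control libraries. Leaving out control A left 12 members called and leaving out control C left 4 (HMGCS1, MSMO1, DHCR7 and SREBF1). In both settings the remaining control was assumed to vary like the other groups, and the cause of the gap between the counts was not tested. The sizes moved less than the calls: without control C the 15 called members ran from -0.71 to -0.18 on the log2 scale, and all 15 stayed negative.

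Library by library, the median over the 20 enzymes of the log2 difference from the control mean was -0.28, -0.17 and -0.18 in sh1 A, B and C and -0.33, -0.46 and -0.32 in sh3 A, B and C, against -0.023 and 0.023 in controls A and C. Every knockdown library was below the controls, and every sh3 library was below every sh1 library. The same median over all genes tested was between -0.0054 and 0.0054 in every library.

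**Figure D1:**
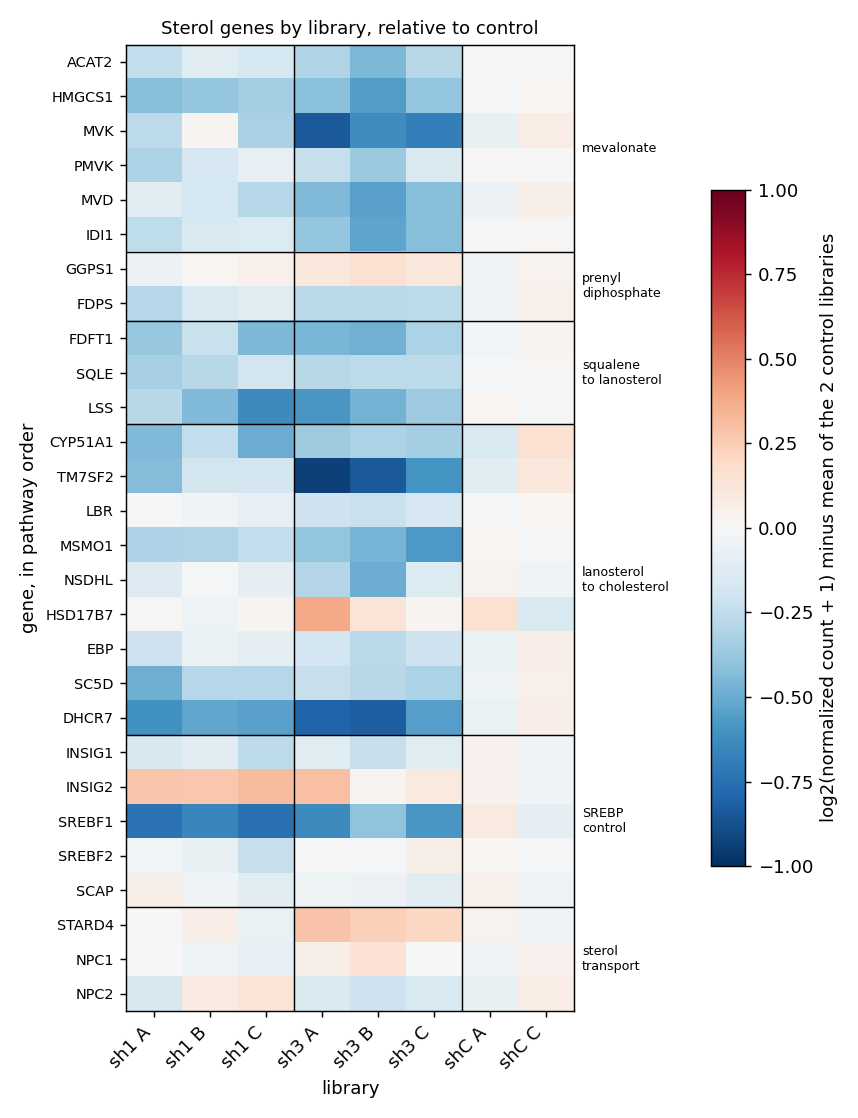
Each cell gives log2(normalized count + 1) of a gene (rows, in pathway order, with the stage on the right) in a library (columns) minus the mean of the 2 control libraries. Blue marks lower and red marks higher values; most enzyme rows are blue in all 6 knockdown libraries, deepest for DHCR7, MVK and TM7SF2 with sh3, while the rows of SREBF2, SCAP and NPC1 stay pale.

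The mevalonate stage makes the isoprene units, and 5 of its 6 enzymes fell over both hairpins. With sh1 alone 1 of the 6 was called lower, and with sh3 alone 5 were. HMGCS1, the cytosolic synthase that joins acetyl-CoA to acetoacetyl-CoA (chromosome 5, 43289395 to 43313512, GRCh38), was at 4092, 4192 and 4324 normalized counts with sh1 and at 4098, 3736.5 and 4204 with sh3, against 5420 and 5562 in the controls. All 6 knockdown libraries were below both controls, and the hairpins overlapped. The log2 fold change was -0.42 ± 0.052 (SE, adjusted p = 0.00064), with a fitted mean that fell by 25.2%, and it was called with each hairpin (sh1 -0.39, adjusted p = 0.0038; sh3 -0.45, adjusted p = 0.00043). Without control C the value with sh1 missed the threshold (-0.37, adjusted p = 0.051).

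MVK, the mevalonate kinase, was at 475, 581 and 454 normalized counts with sh1 and at 317, 370 and 353 with sh3, against 539 and 599.7 in the controls. The sh3 libraries were lower than all others, while sh1 B lay between the controls. The log2 fold change was -0.72 ± 0.12 with sh3 (SE, adjusted p = 0.0026) and -0.18 ± 0.12 with sh1 (adjusted p = 0.41). Over both hairpins it was -0.45 (adjusted p = 0.021). Against control C alone it was -0.53 (adjusted p = 0.059) and against control A alone -0.37 (adjusted p = 0.22), neither of them called.

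IDI1, the isomerase that interconverts the isoprene units, was at 3138, 3357 and 3405 normalized counts with sh1 and at 2851, 2596 and 2787 with sh3, against 3700 and 3770 in the controls. The groups formed 3 steps without overlap. MVD, the decarboxylase that ends the stage, was at 1637, 1558 and 1445 with sh1 and at 1298, 1212 and 1315 with sh3, against 1692 and 1836 in the controls, again without overlap. IDI1 changed by -0.31 ± 0.053 and MVD by -0.33 ± 0.065 on the log2 scale over both hairpins (SE, adjusted p = 0.0039 and 0.0086). With control A alone neither was called, IDI1 being at -0.30 (adjusted p = 0.064) and MVD at -0.27 (adjusted p = 0.14).

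ACAT2, the cytosolic thiolase that opens the pathway, fell over both hairpins (-0.26 ± 0.056, SE, adjusted p = 0.012). It was no longer called against control C alone (adjusted p = 0.067) or control A alone (adjusted p = 0.11). Its knockdown libraries ran from 2933 to 3677 normalized counts, against 3993 and 4010 in the controls. PMVK, the phosphomevalonate kinase, was not called at -0.22 (adjusted p = 0.095), although its knockdown libraries, at 811 to 988, were all below the controls at 1042.5 and 1050.

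The prenyl diphosphate synthases stand at the branch to sterols and to prenylated proteins, and they differed. FDPS, which makes farnesyl diphosphate for both branches, was at 5625 to 6296 normalized counts with sh1 and at 5673 to 5701 with sh3, against 6628.5 and 7079 in the controls. With sh1 it was not called (-0.19, adjusted p = 0.077), and over both hairpins it fell, with a log2 fold change of -0.23 (adjusted p = 0.014). The call ended without control C (-0.18, adjusted p = 0.18). GGPS1, which makes geranylgeranyl diphosphate for protein prenylation, was at 1495 to 1612.5 with sh1 and at 1677.5 to 1726 with sh3, against 1515.5 and 1596 in the controls, with a change of 0.064 (adjusted p = 0.48).

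All 3 enzymes that turn farnesyl diphosphate into lanosterol fell, and each was called with each hairpin. FDFT1, the squalene synthase and first enzyme committed to sterols, was at 7773, 8684 and 7408 normalized counts with sh1 and at 7365.5, 7274 and 8147 with sh3, against 9942 and 10328 in the controls. SQLE, the squalene epoxidase, was at 2934, 3047 and 3254 with sh1 and at 3047, 3079 and 3081 with sh3, against 3672 and 3727 in the controls. LSS, the cyclase that forms lanosterol, was at 1920, 1721 and 1501 with sh1 and at 1555, 1683 and 1811 with sh3, against 2366 and 2299 in the controls. In these 3 genes the knockdown libraries were all below the controls, and the hairpins overlapped. The log2 fold changes over both hairpins were -0.39 ± 0.063 for FDFT1, -0.27 ± 0.049 for SQLE and -0.46 ± 0.086 for LSS (SE, adjusted p = 0.0033, 0.0056 and 0.0061). Without control C they were -0.36, -0.26 and -0.48, with adjusted p of 0.064, 0.081 and 0.068, and LSS also missed the threshold without control A (adjusted p = 0.053). The calls with sh1 ended in all 3 genes when either control was left out.

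Of the 9 enzymes from lanosterol to cholesterol 5 fell over both hairpins (CYP51A1, TM7SF2, MSMO1, SC5D and DHCR7). With sh1 alone 3 of the 9 were called lower, and with sh3 alone 7 were. DHCR7, the reductase that ends one of the routes to cholesterol (chromosome 11, 71428193 to 71452868), and SREBF1 had the lowest log2 fold changes of the members over both hairpins, within an SE of each other and in the opposite order with control A alone. DHCR7 was at 1645, 1753 and 1722 normalized counts with sh1 and at 1441, 1414.5 and 1711 with sh3, against 2398 and 2624 in the controls. The knockdown libraries were far below both controls and sh3 C lay among the sh1 libraries. The log2 fold change was -0.64 ± 0.075 (SE, adjusted p = 0.00045), with a fitted mean that fell by 35.9%, and it was -0.58 (adjusted p = 0.019) without control C.

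TM7SF2 and LBR encode the sterol reductases of the same step, and LBR is also a lamin-binding protein of the inner nuclear membrane. TM7SF2 was at 589.6, 701 and 699.8 normalized counts with sh1 and at 415, 445 and 524 with sh3, against 738 and 856 in the controls. The 3 groups did not overlap, and the change over both hairpins was -0.53 ± 0.11 (SE, adjusted p = 0.0096) and -0.42 (adjusted p = 0.15) without control C. LBR was at 15586, 15316 and 14981 with sh1 and at 13711, 13570.0 and 14086 with sh3, against 15629 and 16012 in the controls. Its change over both hairpins missed the threshold (-0.12 ± 0.038, SE, adjusted p = 0.052; called without sh1 A, adjusted p = 0.035), while with sh3 it was called (-0.20, adjusted p = 0.0080), though not when control C was left out (adjusted p = 0.077).

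MSMO1, the oxidase that begins removal of the methyl groups at carbon C4, was at 1580.1, 1587 and 1648 normalized counts with sh1 and at 1490.3, 1415 and 1313 with sh3, against 1983 and 1928 in the controls. The groups formed 3 steps without overlap, with a change of -0.38 ± 0.059 over both hairpins (SE, adjusted p = 0.0026). CYP51A1, the lanosterol demethylase, changed by -0.36 (adjusted p = 0.028) and by -0.21 (adjusted p = 0.35) without control C, its controls being apart at 699 and 864 normalized counts. That call also ended without sh3 A (-0.36, adjusted p = 0.055). SC5D, a sterol desaturase late in the pathway, changed by -0.31 (adjusted p = 0.014) and by -0.26 (adjusted p = 0.17) without control C.

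The other enzymes of the sterol stage were not called over both hairpins. EBP, a sterol isomerase, was at -0.17 (adjusted p = 0.094), and with sh3 alone at -0.22 (adjusted p = 0.049), a call lost under 10 other settings. NSDHL, which acts with MSMO1 in demethylation, was at -0.19 (adjusted p = 0.22). HSD17B7, the ketoreductase of the same demethylation complex, was at 0.087 (adjusted p = 0.62), and its controls, at 909 and 735 normalized counts, enclosed all 3 sh1 libraries.

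**Figure D2:**
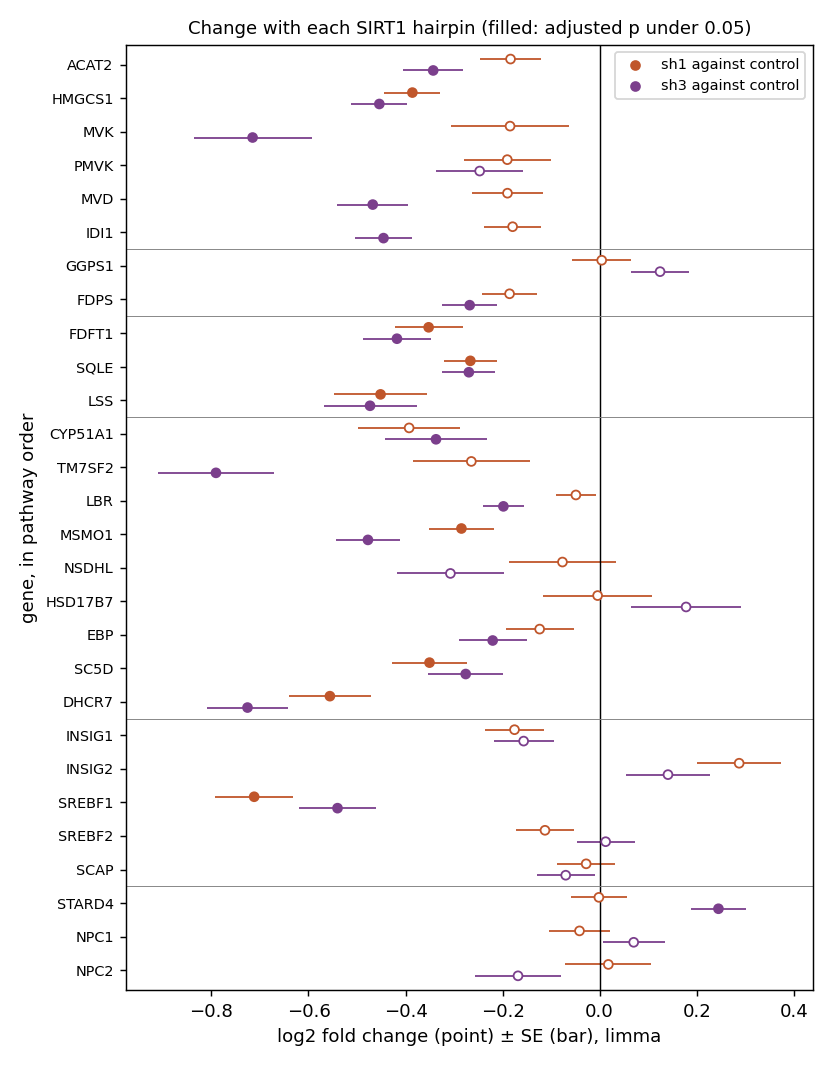
Points give the limma log2 fold change of each gene with sh1 (orange) and with sh3 (purple) against control, bars the SE, and filled points an adjusted p under 0.05. Of the 20 enzymes 16 are filled for sh3 and 7 for sh1, and for MVK and TM7SF2 the sh3 points lie far to the left of the sh1 points.

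Among the regulators, SREBF1 and SREBF2 differed in what they did. SREBF1, which encodes the SREBP factors best known for fatty acid genes (chromosome 17, 17810399 to 17837002), was at 1611, 1711 and 1600.5 normalized counts with sh1 and at 1731, 2036 and 1790.3 with sh3, against 2855 and 2529.5 in the controls. All knockdown libraries were below both controls, and the hairpins did not overlap. The log2 fold change was -0.63 ± 0.072 (SE, adjusted p = 0.00039), with a fitted mean that fell by 35.2%, and it was called with sh1 (-0.71, adjusted p = 0.00061) and with sh3 (-0.54, adjusted p = 0.0011). The values are per gene, so that the SREBF1 transcripts from different starts cannot be told apart.

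SREBF2, whose product is best known for the cholesterol enzymes (chromosome 22, 41833079 to 41907308), was at 7446, 7218 and 6471.5 normalized counts with sh1 and at 7565, 7542 and 7907.5 with sh3, against 7694 and 7515 in the controls. The groups overlapped, and the change of -0.050 ± 0.053 (SE) had an adjusted p of 0.59. SCAP, the escort protein, was at 3270.4 to 3660.4 with sh1 and at 3271 to 3418 with sh3, against 3647 and 3398.5 in the controls (-0.049, adjusted p = 0.60).

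INSIG1, the INSIG gene that is itself a well known SREBP target, was at 3407, 3542 and 3173 normalized counts with sh1 and at 3509, 3248 and 3493 with sh3, against 3916 and 3699.9 in the controls. All 6 knockdown libraries were below both controls, yet the change of -0.17 ± 0.055 (SE) missed the threshold (adjusted p = 0.071). INSIG2 was at 909, 901 and 933 with sh1 and at 921, 765 and 799.97 with sh3, against 770.4 and 728 in the controls. Its sh1 libraries were all above the controls and sh3 B lay between the controls, with a change of 0.21 ± 0.078 (adjusted p = 0.093).

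The 3 transport genes were not called over both hairpins. NPC1 and NPC2, which hand cholesterol out of the lysosome, had log2 fold changes of 0.014 and -0.075 (adjusted p = 0.90 and 0.58). STARD4, a soluble carrier that moves sterol between membranes (chromosome 5, 111496033 to 111512590), was at 2724, 2869 and 2608 normalized counts with sh1 and at 3335, 3229 and 3160.2 with sh3, against 2801 and 2669.8 in the controls. The sh3 libraries were all above the rest, and the sh1 libraries overlapped with the controls. STARD4 rose with sh3 (0.24 ± 0.057, SE, adjusted p = 0.013) and was at -0.0015 with sh1 (adjusted p = 0.99). The call with sh3 ended without control C (0.21, adjusted p = 0.12) and without sh3 A (0.22, adjusted p = 0.054).

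**Figure D3:**
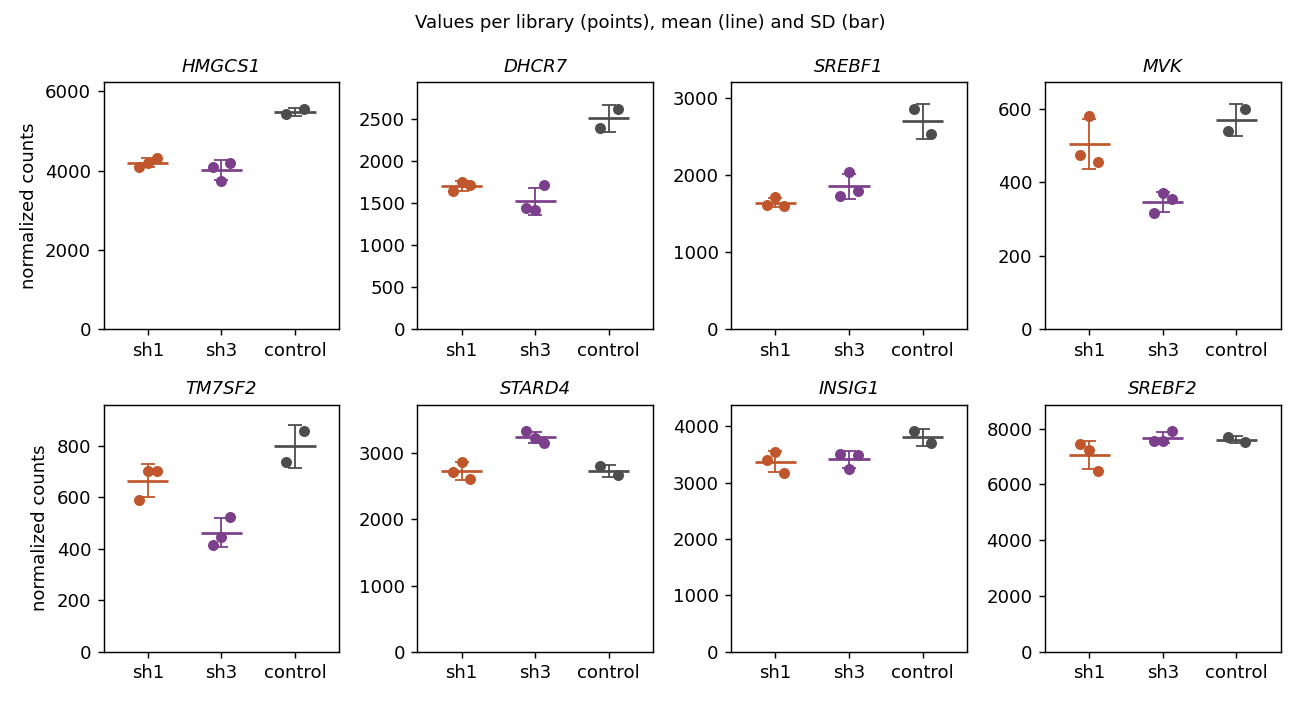
Normalized counts per library (points) for 8 members, with the group mean (line) and SD (bar) for sh1, sh3 and control. HMGCS1, DHCR7 and SREBF1 are lower with both hairpins than in control, MVK and TM7SF2 are lowest with sh3, STARD4 is highest with sh3, and SREBF2 overlaps between the groups.

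Each hairpin was also set against control alone, with the same 2 control libraries in both comparisons. With sh1 8 of the 28 members fell and 0 rose, beside 3.43% of all genes tested called lower and 2.88% called higher. These were HMGCS1, FDFT1, SQLE, LSS, MSMO1, SC5D, DHCR7 and SREBF1, and all 8 were called with sh3 too. The count with sh1 was 5 without sh1 B, 4 without control A and 1 without control C, the single one being SREBF1. With sh3 17 members fell, beside 9.19% of all genes tested, and 1 rose, beside 9.36%. Of the 20 enzymes 9 were called with sh3 and not with sh1, 0 the other way round, and 4 (PMVK, GGPS1, NSDHL and HSD17B7) with neither. Without control C 11 members were called with sh3, and the sh3 calls of CYP51A1, SC5D and EBP ended when any single sh3 library was left out (adjusted p from 0.055 to 0.14). The median log2 fold change over the enzymes was -0.19 with sh1 and -0.34 with sh3.

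A call with a single hairpin does not show that the hairpins differ, and sh1 was therefore compared with sh3 directly. The difference itself uses no control library, but the controls enter the estimate of the spread behind its SE and p. With sh1 and sh3 alone in the fit 6 members were called as well, 5 higher and 1 lower with sh1. Of the 28 members 5 were higher with sh1 than with sh3 (MVK, MVD, IDI1, TM7SF2 and LBR), beside 5.61% of all genes tested, and 1 was lower (STARD4), beside 5.83%. The log2 differences of sh1 minus sh3 were 0.53 ± 0.11 for MVK, 0.53 ± 0.11 for TM7SF2, 0.28 ± 0.065 for MVD, 0.27 ± 0.053 for IDI1, 0.15 ± 0.038 for LBR and -0.25 ± 0.051 for STARD4 (SE, adjusted p = 0.0092, 0.0091, 0.018, 0.0074, 0.025 and 0.010). LBR was no longer called when sh1 B, sh3 A or sh3 B was left out (adjusted p = 0.087, 0.092 and 0.11), and MVD without sh1 B or sh3 B (adjusted p = 0.063 and 0.081). In 16 of the 20 enzymes the fitted mean was lower with sh3 than with sh1, as it was in 49.6% of all genes tested. All 3 sh3 libraries were below all 3 sh1 libraries in 8 of the 20 enzymes and above them in 1, beside 15.2% of all genes tested each way. Over the 28 members these counts were 8 and 5. For the enzymes from squalene to lanosterol, called with each hairpin, the differences were 0.065 for FDFT1, 0.0032 for SQLE and 0.022 for LSS, and for SREBF1 the difference was -0.17 (adjusted p = 0.57, 0.98, 0.91 and 0.15). DHCR7 was at 0.17 (adjusted p = 0.18), and at 0.26 without sh3 C (adjusted p = 0.034). The mean of SIRT1 itself was 1299.7 ± 36.5 normalized counts over the sh1 libraries and 1165 ± 60.1 over the sh3 libraries (SD, n = 3 for each hairpin). Its sh3 libraries were all below its sh1 libraries, yet the sh1 minus sh3 difference of 0.16 was not called (limma adjusted p = 0.14). The part of the SIRT1 level in the differences of the members was not tested.

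**Figure D4:**
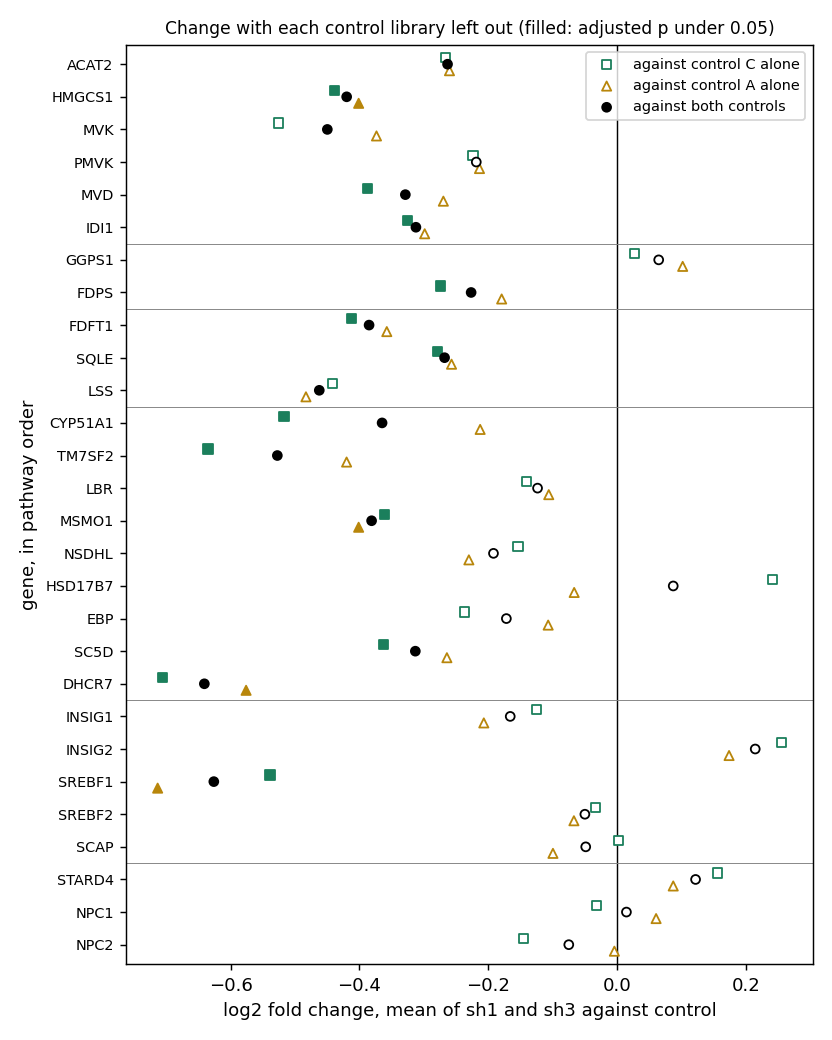
Log2 fold change of each member for both hairpins against control C alone (green squares), control A alone (yellow triangles) and both controls (black circles), with filled symbols for an adjusted p under 0.05. All 15 filled circles keep their side of 0, and 4 members (HMGCS1, MSMO1, DHCR7 and SREBF1) are filled in all 3 settings.

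Other genes of sterol and isoprenoid handling were taken from 4 lists, whose counts over both hairpins stand beside 6.19% of all genes tested called lower and 6.55% called higher. In the list of sterol sensing, SREBP processing and sterol-regulated degradation, 14 of 16 genes were measured, 2 fell and 0 rose, with a median change of -0.082 on the log2 scale. With sh1 neither TMEM97 (-0.15, adjusted p = 0.19) nor PGRMC1 (-0.15, adjusted p = 0.18) was called, while with sh3 both were (-0.38 and -0.29, adjusted p = 0.0024 and 0.0088). These were the 2 falls over both hairpins. TMEM97, a sterol-regulated membrane protein that binds NPC1, was at -0.27 (adjusted p = 0.013), and PGRMC1, a heme protein that binds CYP51A1, at -0.22 (adjusted p = 0.026). TMEM97 was no longer called with control A alone (adjusted p = 0.17). PGRMC1 lost its call when control A, control C or sh3 A was left out (adjusted p = 0.072, 0.23 and 0.052).

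In the list of sterol uptake, esterification, transport, oxidation and efflux 17 of 20 genes were tested, and 1 fell and 1 rose, shares near those over all genes. VLDLR, a lipoprotein receptor, was at 2645, 2772 and 2501 normalized counts with sh1 and at 3122, 3195 and 3256 with sh3, against 3367 and 3392 in the controls (-0.22, adjusted p = 0.016). It was called with sh1 (-0.36, adjusted p = 0.0047), a call lost with control A alone (adjusted p = 0.052), and was at -0.083 with sh3 (adjusted p = 0.34). OSBP, which exchanges sterol for a phosphoinositide at the Golgi, rose (0.23, adjusted p = 0.0056). Its libraries averaged 4296 ± 116 for sh1 and 4519.7 ± 70.8 for sh3 (SD, n = 3 for each hairpin), against 3748 ± 66.0 for control (SD, n = 2). With a single control VLDLR was not called (adjusted p = 0.078 with control C and 0.14 with control A), nor was OSBP with control A (adjusted p = 0.085).

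The branches that use prenyl diphosphates for dolichol, ubiquinone and protein prenylation held 0 falls and 1 rise in 14 tested genes of 15, with a median of -0.059, the share that rose being near that over all genes. The rise was in FNTA, a subunit shared by the farnesyl and geranylgeranyl transferases, at 0.17 with an adjusted p of 0.0498. That call ended under most other settings, among them a single control (adjusted p = 0.23 with control C and 0.18 with control A). Of 12 fatty acid genes under SREBP 11 were tested, of which 4 fell and 0 rose over both hairpins. These were FASN (-0.48), FADS2 (-0.36) and PCYT2 (-0.43), a phosphatidylethanolamine synthesis enzyme, beside SCD, the stearoyl-CoA desaturase (-0.49). With sh1 alone 3 of the 11 fell and 1 rose, beside 3.43% and 2.88% of all genes tested. With sh3 alone 4 fell and 1 rose, beside 9.19% and 9.36%. FASN, the fatty acid synthase, was at 8513, 7715 and 6593 normalized counts with sh1 and at 6980.2, 6345 and 6842 with sh3, against 9802 and 10151 in the controls. With control A alone FASN (adjusted p = 0.057) and PCYT2 (adjusted p = 0.10) were not called, and with control C alone FADS2 was not (adjusted p = 0.055).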

How the data were processed

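Per the labels' protocols, libraries from DND41 RNA kept the strand. Kallisto 0.44.0, DESeq and hg38 are named in the submitters' processing notes, without the transcript annotation or how transcripts were summed to genes. What the authors deposited is a signal: normalized counts, with 1 row to a gene symbol. These are not whole: between 27.1% and 41.6% of low values came within 0.02 of whole steps of 0.884 to 1.15. Whole reads were therefore not recovered, and no test for counts was used.

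Values were analysed as log2(value + 1), which understates changes of low genes. Of 18133 rows, 13885 averaging 10 or more were kept. Group means of sh1, sh3 and control were fitted with limma 3.58.1 (R 4.3.3), with 5 residual degrees of freedom and a variance prior that followed the mean. Contrasts were the mean of sh1 and sh3 against control, each hairpin against control, and sh1 against sh3, two-sided, with Benjamini-Hochberg adjustment over all genes tested and a threshold of 0.05. Alternatives were other pseudocounts, filters and scalings, a constant variance prior, a term for the replicate letter, fits of 2 groups and leaving out each library.

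The members and lists were chosen with earlier results of these data known. Named genes are the 28 members, SIRT1 and, of each list, up to 5 called genes with the smallest p. ABCA1, ABCG1, ERLIN1 and ELOVL5 were chosen after their values were seen.

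Gene positions follow GENCODE release 29 (GRCh38, also called hg38), and promoters follow RefSeq on GRCh38.p14. By exons of that annotation, MVK overlaps MMAB, ACAT2 overlaps TCP1 and SOD2, SREBF1 overlaps RAI1, GGPS1 overlaps ARID4B, NPC1 overlaps RMC1 and NPC2 overlaps ISCA2, all on the opposite strand. TM7SF2 overlaps VPS51, GGPS1 also overlaps TBCE and CYP51A1 overlaps 2 readthrough genes on the same strand. FDPS, CYP51A1 and HSD17B7 have 8, 3 and 2 pseudogenes. No source used here says whether reads were assigned by strand, so that values of these genes are uncertain where reads could be split.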

Additional observations from a re-analysis of the deposited data

Results flagged for a closer look

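The effects of the hairpins differed, by the direct test of sh1 against sh3, in 6 members: MVK (0.53 on the log2 scale, sh1 minus sh3), TM7SF2 (0.53), MVD (0.28), IDI1 (0.27), LBR (0.15) and STARD4 (-0.25). By the same test the list genes TMEM97 (0.23), PCYT2 (0.28) and VLDLR (-0.275) were called, with limma adjusted p of 0.023, 0.035 and 0.0044. In all, the sterol sensing list had 2 of 14 genes higher with sh1 than with sh3 and 0 lower. The list of uptake and efflux had 3 of 17 lower and 0 higher, the fatty acid list 1 of 11 each way and the isoprenoid list 0 of 14. Over all genes tested 5.61% were called higher and 5.83% lower. The list counts include ABCA1 (-1.53), ABCG1 (-0.84), ERLIN1 (0.34) and ELOVL5 (-0.20). These 4 genes were chosen after their values were seen, so that their calls are no independent result.

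PCYT2 missed the threshold without sh1 A, sh1 C, sh3 A or sh3 B (adjusted p between 0.086 and 0.14), TMEM97 without sh1 B, sh1 C, sh3 A or sh3 B (between 0.060 and 0.098) and ELOVL5 without sh1 B, sh3 A or sh3 B (between 0.063 and 0.080). The sh1 arm and the sh3 arm are a single hairpin each, so that the hairpin and its degree of SIRT1 knockdown cannot be told apart.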

How the results depend on the processing

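For members in the 4 contrasts, 1785 of the values recomputed under an alternative kept their side of the threshold, 82 lost a call and 9 gained one. No called value changed sign, but some uncalled values near 0 did. HSD17B7 over both hairpins, for example, went from 0.087 to -0.067 without control C. Over all genes the main counts of calls were 1768 for both hairpins against control, 876 for sh1, 2576 for sh3 and 1589 for sh1 against sh3. With a constant variance prior they were 744, 236, 1531 and 968, and members called were 8 of 28 for both hairpins and 3 for sh1. With sh1 and control alone in the fit 463 genes were called for sh1. Leaving out 1 library gave 339 to 1892, 160 to 784, 854 to 2926 and 926 to 1765 genes, and 4 to 16, 1 to 8, 11 to 19 and 4 to 7 members; the lowest counts against control came without control C, and the cause was not tested. Without sh3 C, whose labels conflict, 15, 8, 16 and 7 members were called.

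Same-letter libraries did not deviate together (correlations from -0.062 to 0.058 over 7 pairs), and no sh1 library correlated best with the sh3 library of its own letter, so that the letters were not taken as pairs. With a replicate block for the letter 1292 genes were called for both hairpins and 549 for sh1, and 15, 6, 17 and 6 members, LSS and MSMO1 with sh1 and EBP with sh3 no longer being called.

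Precision is set by 2 control libraries. Read depth is not known from normalized values.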

Other observations

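The sterol exporters ABCA1 and ABCG1, which the nuclear receptors encoded by NR1H2 and NR1H3 are known to induce when sterols are plentiful, stood higher with sh3 than with sh1. ABCG1 was at 467, 462 and 336 normalized counts with sh1 and at 823, 691 and 728 with sh3, so that the hairpins did not overlap, and at 583 and 553 in the controls, between them. ABCA1, a low gene here, was at 20.3, 13.3 and 10.4 with sh1 and at 41.6, 49.7 and 38.0 with sh3, against 12.4 and 14.3 in the controls. The sh1 minus sh3 differences of -0.84 for ABCG1 and -1.53 for ABCA1 had limma adjusted p of 0.0012 and 0.0083. ABCA1 rose with sh3 (1.62, adjusted p = 0.0083) and was at 0.082 with sh1 (adjusted p = 0.92), though not against control A alone (1.71, adjusted p = 0.0501), while ABCG1 was called against control with neither hairpin (sh1 -0.44, adjusted p = 0.084; sh3 0.39, adjusted p = 0.071). Without sh1 C, however, ABCG1 was called with sh3 (0.39, adjusted p = 0.016) and was at -0.29 with sh1 (adjusted p = 0.14). NR1H2 and NR1H3 themselves were not called in any of the 4 contrasts. A part of sterol levels or of these receptors in the values of ABCA1 and ABCG1 was not tested. ABCA1 and ABCG1 were chosen after their values were seen.

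ERLIN1, which acts in sterol-regulated protein degradation in the endoplasmic reticulum, was at 1937, 1943.5 and 1863 normalized counts with sh1 and at 1551, 1501 and 1499 with sh3, against 1844 and 1992 in the controls. It fell with sh3 (-0.34, adjusted p = 0.0031) and was at -0.0017 with sh1 (adjusted p = 0.99). ELOVL5, a fatty acid elongase, rose with sh3 (0.19, adjusted p = 0.028), and was no longer called against control C alone (adjusted p = 0.079) or control A alone (adjusted p = 0.16), nor without sh3 A (adjusted p = 0.10) or sh3 B (adjusted p = 0.093).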
